A study of Homo sapiens with 6 samples.

Results

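Cholesterol synthesis genes and the genes that sense, move and store sterols were followed in H1299 cells, an established human lung carcinoma line that the labels call lung adenocarcinoma and mesenchymal, with and without knockdown of CCNB1, the gene of cyclin B1. The group consisted of 31 genes, found by symbol among 58336 rows of the count table. It held 7 genes of the route from acetyl-CoA to farnesyl diphosphate, 11 genes of the squalene and sterol steps and 5 genes of the SREBP machinery. The rest were 3 genes of sterol transport and 5 genes of the LXR, efflux, receptor turnover and storage arm. All 31 were listed and 30 passed the filter on low counts. The exception, ABCG1, an exporter of cellular cholesterol, had 0 to 3 counts in every library, which is at or under the limit of 3 counts, and it is not considered further.

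The study compared 3 libraries of H1299 cells with a mock vector (PLVT7_MOCK, genotype WT) with 3 libraries of H1299 cells with a short hairpin RNA against CCNB1 (PLVT7_CCNB1, genotype CCNB1 knockdown). All 6 were grown in RPMI-1640 with 10% fetal bovine serum, and stable lines were selected at 1 µg/ml puromycin, added 14 days after confluence per the labels, so serum, vector backbone and puromycin were common to both groups. The labels name a single knockdown construct and do not say whether a group was 1 clone or a pool, or whether its 3 libraries came from separate cultures. The spread behind each p-value is that of these 6 libraries and could be technical only.

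Cholesterol is built from acetyl-CoA through mevalonate, farnesyl diphosphate and squalene to lanosterol, which is trimmed step by step to cholesterol. The genes of this route are switched on together by SREBP2, a transcription factor held in the endoplasmic reticulum by SCAP and the INSIG proteins while sterols are plentiful, and released when they run short. SREBP1, from the gene SREBF1, acts mostly on fatty acid synthesis, and LXR, a nuclear receptor for oxysterols, turns on cholesterol export. SREBP proteins bind sterol regulatory elements and work together with the factors NF-Y and SP1 at the promoters of many of these genes.

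The promoters of 5 genes are given in the 5′ to 3′ direction of the gene, from 250 bases before to 50 bases after the RefSeq start (GRCh38.p14). FDPS, IDI1 and STARD4 had the largest differences between the groups, and INSIG1 and SREBF2 are the feedback arm of the system. Capitals mark CCAAT, the NF-Y box, and CACNCCAC, a core of the sterol regulatory element, on either strand, so that ATTGG and GTGGNGTG are their reverse complements. The coordinates were chr1:155308616-155308915 on the plus strand for FDPS, chr10:1048837-1049136 on the minus strand for 1 of the 3 listed starts of IDI1, and chr5:111512486-111512785 on the minus strand for STARD4. They were chr7:155297628-155297927 on the plus strand for INSIG1 and chr22:41832855-41833154 on the plus strand for SREBF2. Of the 3 listed starts of IDI1, only that shown had a match of CACNCCAC.
FDPS: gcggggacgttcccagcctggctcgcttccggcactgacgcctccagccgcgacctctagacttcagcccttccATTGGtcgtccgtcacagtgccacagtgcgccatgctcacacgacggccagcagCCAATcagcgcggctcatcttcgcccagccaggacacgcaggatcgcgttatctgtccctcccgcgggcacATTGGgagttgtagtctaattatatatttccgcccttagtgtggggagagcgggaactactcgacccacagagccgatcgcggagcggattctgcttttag
IDI1: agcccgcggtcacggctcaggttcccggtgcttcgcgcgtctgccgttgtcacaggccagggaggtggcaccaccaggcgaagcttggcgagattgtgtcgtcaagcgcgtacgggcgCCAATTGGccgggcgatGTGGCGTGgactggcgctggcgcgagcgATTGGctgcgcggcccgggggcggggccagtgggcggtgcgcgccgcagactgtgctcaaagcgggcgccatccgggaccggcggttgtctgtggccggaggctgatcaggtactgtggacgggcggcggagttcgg
STARD4: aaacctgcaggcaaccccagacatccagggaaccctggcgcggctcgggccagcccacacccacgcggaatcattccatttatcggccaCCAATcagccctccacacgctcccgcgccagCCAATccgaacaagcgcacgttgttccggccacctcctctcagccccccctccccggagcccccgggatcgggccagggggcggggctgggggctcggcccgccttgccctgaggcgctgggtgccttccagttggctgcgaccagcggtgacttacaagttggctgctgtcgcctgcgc
INSIG1: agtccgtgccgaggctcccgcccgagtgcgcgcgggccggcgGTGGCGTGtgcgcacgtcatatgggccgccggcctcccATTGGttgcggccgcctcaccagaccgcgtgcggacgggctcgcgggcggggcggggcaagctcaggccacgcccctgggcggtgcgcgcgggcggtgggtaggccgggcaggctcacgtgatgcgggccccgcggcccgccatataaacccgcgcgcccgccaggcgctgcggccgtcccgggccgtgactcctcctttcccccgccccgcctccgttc
SREBF2: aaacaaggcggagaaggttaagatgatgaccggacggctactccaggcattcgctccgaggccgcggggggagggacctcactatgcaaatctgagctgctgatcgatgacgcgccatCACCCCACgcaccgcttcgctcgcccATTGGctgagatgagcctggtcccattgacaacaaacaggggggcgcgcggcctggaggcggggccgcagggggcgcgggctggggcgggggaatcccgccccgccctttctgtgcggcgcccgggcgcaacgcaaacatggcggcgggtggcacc

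The NF-Y box was found in 19 of the 27 member genes with a listed promoter, or 70.4%, against 42.6% of the 11232 tested genes with a listed promoter and 34.6% of all 35116 promoters listed. CACNCCAC was found in 5 of the 27, ABCA1, IDI1, INSIG1, SC5D and SREBF2, or 18.5%, against 7.81% of tested genes and 5.87% of all promoters. GGGCGG, the box of SP1, was found in 26 of the 27, or 96.3%, against 75.8% of tested genes and 45% of all promoters, and none of these 3 motifs is contained in another. A gene was counted if any of its listed starts matched, whereas the shares over all promoters count each promoter singly. Counted singly, the NF-Y box was in 21 of 34 member promoters, CACNCCAC in 6 and GGGCGG in 32. In IDI1, 2 matches of the NF-Y box share bases, since CCAATTGG reads as the box on both strands. Members with the NF-Y box had a median log2 fold change of -0.42 and the 8 without it one of -0.40. For CACNCCAC the medians were -0.62 with it and -0.37 in the 22 members without it, and for GGGCGG -0.43 with it and 0.10 in the 1 member without it. These medians were not tested. These matches are letters in a window of fixed length and not evidence of binding.

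The libraries held 28122665 to 30332989 counts. CCNB1 was at 323, 305 and 294 CPM in mock libraries 1, 2 and 3 and at 19.9, 29.9 and 16.1 CPM in knockdown libraries 1, 2 and 3. CPM here is the count scaled to a common library size, and the targeted gene was thus low in all 3 knockdown libraries. Knockdown libraries 1 and 3 differed from each other by a root mean square of 0.42 on the log2 CPM scale over all genes tested, as did mock libraries among themselves (0.40 to 0.45). Knockdown library 2 differed from those libraries by 0.57 and 0.58 and from the mock libraries by 0.47 to 0.52, so it stood apart from its own group, and results are given with and without it. Of the markers, VIM, KRT8 and KRT18 were at 292 CPM or more in every library and CDH1 had at most 3 counts. Of 5 lung adenocarcinoma markers 1, KRT7, exceeded 1 CPM in every library, SFTPC had at most 3 counts, and their summed level was 2.22 to 2.68 CPM in mock and 3.36 to 3.98 CPM in knockdown libraries. Of 6 markers of other cell types, PTPRC and CD3E had 0 counts and none exceeded 1 CPM in every library, and their summed level was 1.16 to 1.62 CPM in mock and 1.04 to 1.55 CPM in knockdown libraries. Among 3 mesenchymal markers, VIM, a filament gene, was at 54.4%, 104% and 58.6% of the mock mean in knockdown libraries 1, 2 and 3, ZEB1 at 80.9%, 103% and 77.0%, and CDH2 at 97.0%, 112% and 107%. They summed to 3268 to 3408 CPM in mock and 1849 to 3462 CPM in knockdown libraries, and 4 epithelial markers summed to 601 to 685 CPM in mock and 836 to 1646 CPM in knockdown libraries. The part of these marker levels in the sterol genes was not tested.

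Sterol genes were mostly lower in knockdown than in mock libraries, but no member passed the threshold, an adjusted p under 0.05 in edgeR's quasi-likelihood test over 17349 genes, where 0.0231% of genes were called lower. The members were chosen with earlier results of these data known, so their shares beside those of all genes are descriptive and were not tested. The log2 fold change of knockdown against mock was below 0 for 25 of 30 members, or 83.3%, against 46.7% of all genes tested, with a median of -0.43 against 0.02. At an unadjusted p under 0.05, 12 members were lower and 0 higher, or 40.0% lower, against 6.88% lower and 8.14% higher among all genes tested. All 3 knockdown libraries lay below all 3 mock libraries for 10 members, or 33.3%, against 8.84% of genes tested, and above them for 0 members, against 10.9%. DESeq2 called 3 members lower, FDPS, SC5D and NR1H2, or 10.0% of members, against 2.05% of genes tested. With no filter on low counts, edgeR called 14 of 31 members lower, or 45.2%, against 1.95% of the 34493 genes then tested. Those 14 include SREBF1, LSS, INSIG1 and STARD4, for which knockdown library 2 was at 119.9%, 119%, 106% and 102% of the mock mean. For SREBF1 the unadjusted p in edgeR went from 0.160 to 1.89e-06 while the log2 fold change went from -0.70 to -0.74. These calls therefore do not show that the 3 knockdown libraries were alike.

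The libraries of the knockdown did not move alike. Relative to the mock mean, the median member stood at -0.63 on the log2 scale in knockdown library 1, at -0.08 in knockdown library 2 and at -0.55 in knockdown library 3, while the median of all genes tested was 0.02 in each. For a further 11 members, or 36.7%, knockdown libraries 1 and 3 lay below every mock library and knockdown library 2 did not, against 13.2% of genes tested. The opposite pattern, with knockdown libraries 1 and 3 above every mock library and library 2 not, held for ACAT2, NSDHL and PMVK, or 10.0% of members, against 13.6%. Without knockdown library 2, 20 of 30 members passed the threshold in edgeR, all of them lower, or 66.7%, against 7.58% of the 17750 genes then tested. That fit rests on knockdown libraries 1 and 3 alone, and the library left out was the one that differed from them. Smaller spreads and p-values thus follow in part from the choice, here and wherever this fit is given below. The SE of INSIG1 went from 0.31 to 0.11, and over all genes 4 passed with all libraries and 2453 in this fit. With any other single library left out, 0 members passed.

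**Figure D1:**
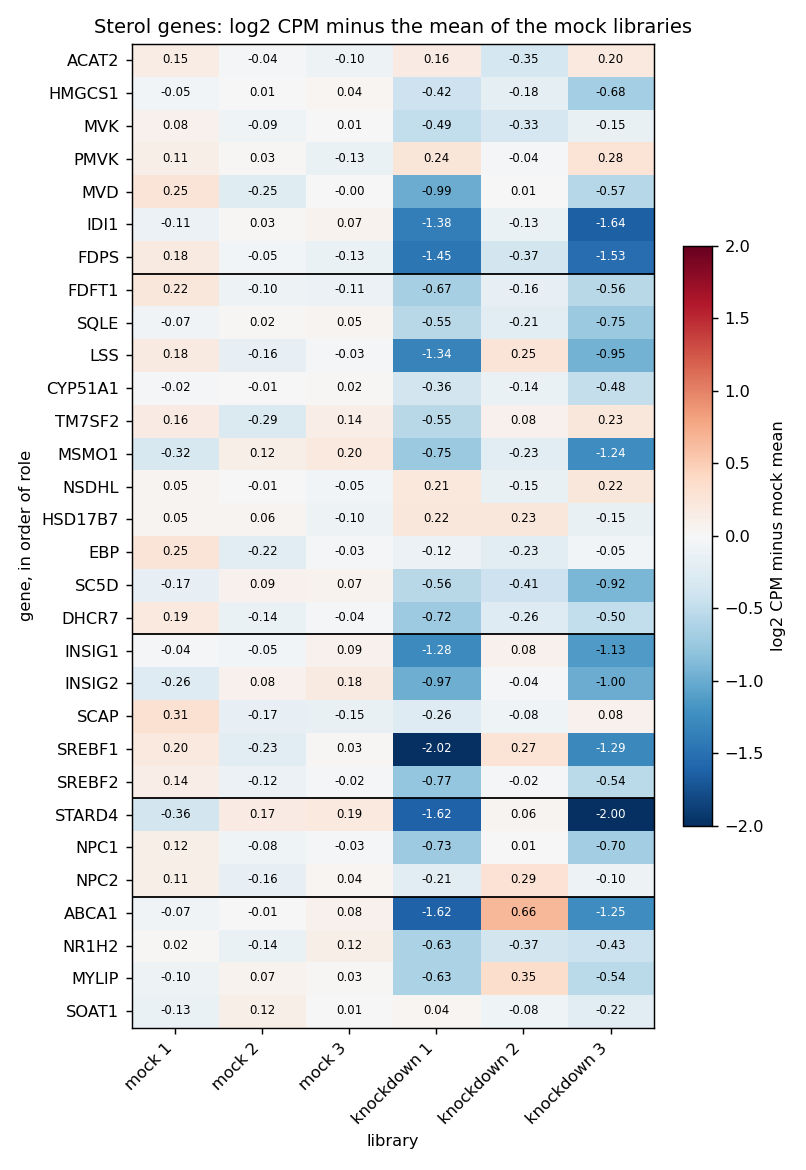
Log2 CPM minus the mean of the 3 mock libraries (colour and printed value) for the 30 tested genes (rows, in order of role, with lines between roles) in each of the 6 libraries (columns). Knockdown libraries 1 and 3 are blue in most rows, with medians of -0.63 and -0.55, while knockdown library 2 is close to white, with a median of -0.08.

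**Figure D2:**
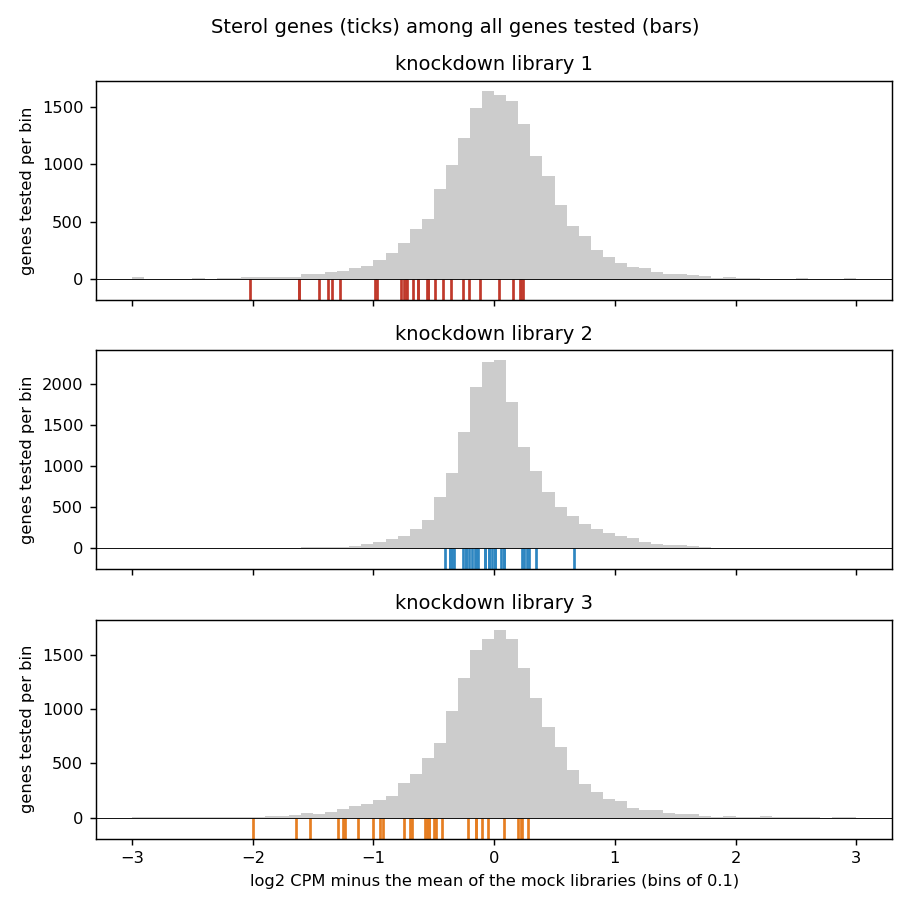
For each knockdown library, bars give the number of tested genes per bin of 0.1 in log2 CPM minus the mock mean, with genes beyond 3 placed in the outermost bins, and ticks give the 30 sterol genes. The ticks reach down to -2.02 in knockdown library 1, with a like range in library 3, and lie between -0.41 and 0.66 in knockdown library 2.

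The early route, from acetyl-CoA to farnesyl diphosphate, had 5 of 7 genes lower, 4 of them at an unadjusted p under 0.05, with a median log2 fold change of -0.42. Over all genes tested, 46.7% were lower and 6.88% were lower at an unadjusted p under 0.05. The last enzymes of the early route stood lowest. FDPS (ENSG00000160752, chromosome 1 from 155308748 to 155320666, plus strand, GRCh38), which makes farnesyl diphosphate, was at 337, 287 and 273 CPM in mock libraries 1, 2 and 3 and at 109, 230.0 and 103 CPM in knockdown libraries 1, 2 and 3. Each knockdown library was below every mock library, and libraries 1 and 3 were at 36.5% and 34.6% of the mock mean. Its log2 fold change was -1.02 (SE 0.28), or 2.03-fold lower, with an unadjusted p of 0.00441 and an adjusted p of 0.155 in edgeR, against adjusted p-values of 0.00687 in DESeq2 and 0.000228 in edgeR without knockdown library 2, where the log2 fold change was -1.49. Exons of FDPS share 18.6% of their bases with RUSC1-AS1 on the opposite strand, and the strand setting of the counting was not given, so part of its counts is uncertain.

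IDI1 (ENSG00000067064, chromosome 10 from 1039152 to 1049170, minus strand), the isomerase that supplies the starter unit for FDPS, was at 249, 275 and 282 CPM in mock and at 103, 245 and 85.8 CPM in knockdown libraries. Knockdown library 2 lay just under the lowest mock library, and the other two were at 38.4% and 31.9% of the mock mean. The difference was -0.89 on the log2 scale (SE 0.33, adjusted p 0.250 in edgeR), and -1.51 (SE 0.12, adjusted p 0.000211) without knockdown library 2. HMGCS1 (ENSG00000112972, chromosome 5 from 43289395 to 43313512, minus strand), which makes HMG-CoA, was at 306, 318 and 325 CPM in mock and at 236, 279 and 197 CPM in knockdown libraries, with no overlap. Its log2 fold change was -0.42 (SE 0.14, adjusted p 0.228 in edgeR).

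MVK (ENSG00000110921, chromosome 12 from 109573255 to 109598117, plus strand), mevalonate kinase, was at 34.4, 30.6 and 32.9 CPM in mock and at 23.2, 25.9 and 29.3 CPM in knockdown libraries. The groups did not overlap, and here library 3, not library 2, was nearest to mock. MVD, the decarboxylase of the route, was at 217, 153 and 182 CPM in mock and at 91.8, 183 and 122 CPM in knockdown libraries (log2 fold change -0.47, SE 0.23, adjusted p 0.379 in edgeR), with library 2 within the mock range. ACAT2, the thiolase that starts the route, and PMVK, the kinase after MVK, went the other way: they were at 112% and 118% of the mock mean in knockdown library 1 and at 115% and 121% in library 3, but at 78.3% and 97.2% in library 2. Their log2 fold changes were 0.02 and 0.16 with adjusted p-values of 0.961 and 0.609 in edgeR, and that of ACAT2 changed sign with the filter and with single libraries. Exons of ACAT2 share 52.3% of their bases with genes on the opposite strand, among them TCP1 and SOD2.

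**Figure D3:**
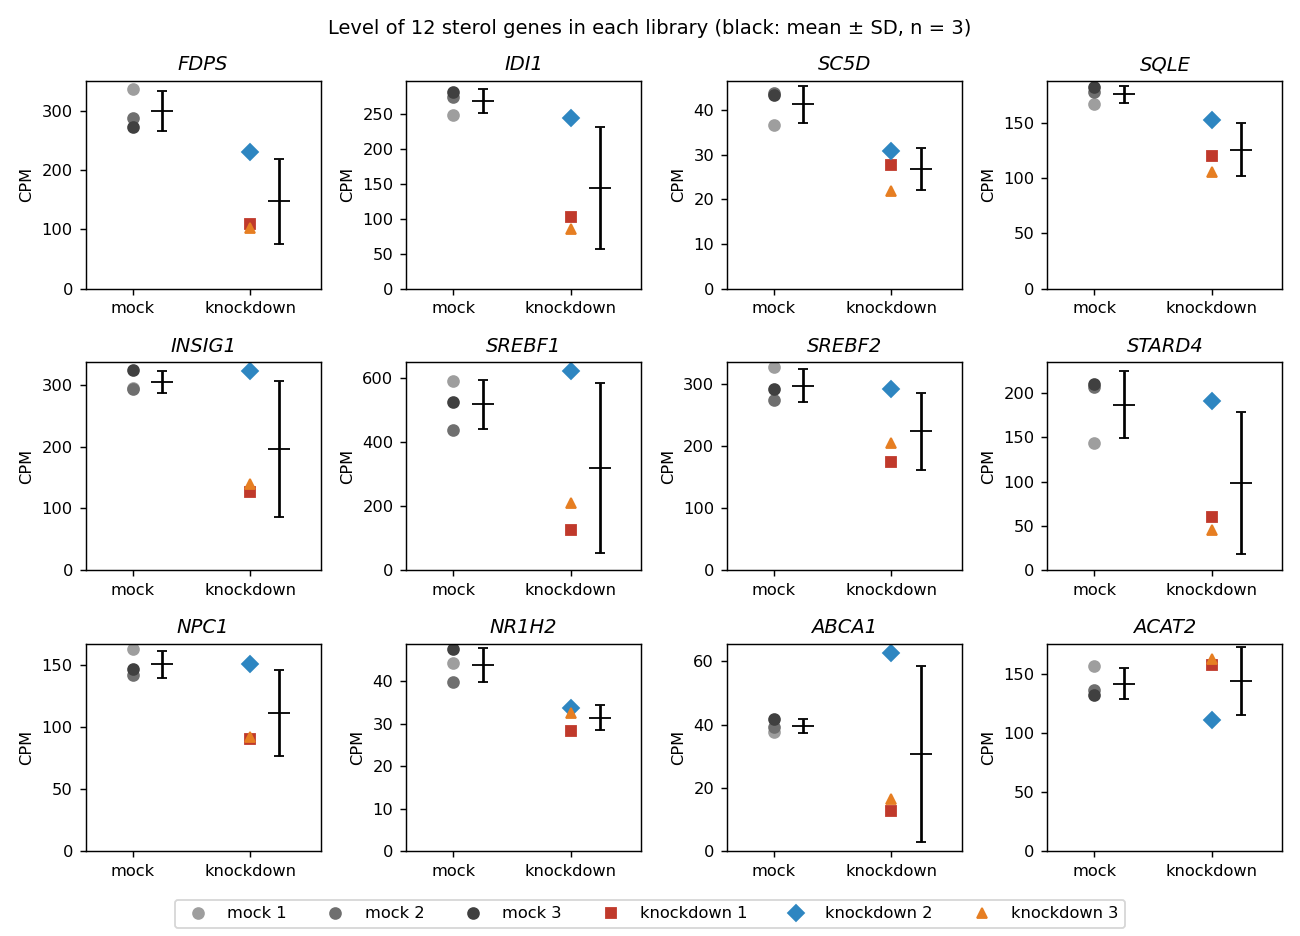
CPM (linear axis from 0) of 12 genes in each mock and knockdown library, one symbol per library, with the mean ± SD of n = 3 beside each group in black. For FDPS, SC5D, SQLE and NR1H2 all knockdown libraries are below all mock libraries, while for INSIG1, SREBF1, SREBF2, STARD4, NPC1 and ABCA1 knockdown library 2 (blue diamonds) lies among or above the mock libraries.

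The squalene and sterol steps had 9 of 11 genes lower, 6 of them at an unadjusted p under 0.05, with a median log2 fold change of -0.46. The shares over all genes tested were 46.7% lower and 6.88% lower at an unadjusted p under 0.05. SC5D (ENSG00000109929, chromosome 11 from 121292453 to 121308694, plus strand), the desaturase that forms the ring double bond of 7-dehydrocholesterol, had the lowest p of all members. It was at 36.6, 43.9 and 43.3 CPM in mock and at 27.8, 30.9 and 21.8 CPM in knockdown libraries, so that library 2 was low as well, at 74.9% of the mock mean. SC5D had a log2 fold change of -0.62 (SE 0.16, unadjusted p 0.00294, adjusted p 0.135 in edgeR, adjusted p 0.0184 in DESeq2). DHCR7 (ENSG00000172893, chromosome 11 from 71428193 to 71452868, minus strand), which reduces 7-dehydrocholesterol to cholesterol, was at 166, 131 and 141 CPM in mock and at 88.4, 121 and 102 CPM in knockdown libraries. The groups did not overlap, and the log2 fold change was -0.49 (SE 0.15, adjusted p 0.188 in edgeR).

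FDFT1, squalene synthase, was at 365, 292 and 291 CPM in mock and at 197, 281 and 213 CPM in knockdown libraries. SQLE, squalene epoxidase, an oxygen-dependent control point of the route, was at 167, 178 and 182 CPM in mock and at 119.9, 152 and 105 CPM in knockdown libraries. Neither gene's groups overlapped, with log2 fold changes of -0.46 (SE 0.16) and -0.49 (SE 0.15) and adjusted p-values of 0.242 and 0.186 in edgeR. LSS (ENSG00000160285, chromosome 21 from 46188141 to 46228824, minus strand), which closes the rings to lanosterol after the step of SQLE, had another pattern. It was at 362, 286 and 313 CPM in mock and at 126, 380.1 and 165 CPM in knockdown libraries, with library 2 above every mock library. Its log2 fold change was -0.52 (SE 0.34, unadjusted p 0.158 in edgeR), and -1.14 (SE 0.15, adjusted p 0.00185) without knockdown library 2.

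CYP51A1, which removes the first methyl group of lanosterol, was at 29.8, 30.0 and 30.6 CPM in mock and at 23.4, 27.3 and 21.5 CPM in knockdown libraries, with no overlap. Its exons share 83.2% of their bases with other genes, some of them on the same strand, so these counts are uncertain. MSMO1 (ENSG00000052802, chromosome 4 from 165327623 to 165343160, plus strand), the methylsterol oxidase that follows, was at 87.3, 118 and 125 CPM in mock and at 64.5, 93.0 and 45.9 CPM in knockdown libraries. Knockdown library 2 lay within the mock range, and the log2 fold change was -0.70 (SE 0.24, adjusted p 0.225 in edgeR). The other genes of the squalene and sterol steps differed little on average, but not alike in each library. TM7SF2, NSDHL, HSD17B7 and EBP had log2 fold changes of -0.06, 0.10, 0.11 and -0.14 with standard errors of 0.14 to 0.21. In knockdown libraries 1, 2 and 3, TM7SF2 was at 67.4%, 105% and 116% of the mock mean and NSDHL at 116%, 89.8% and 116%. HSD17B7 was at 116%, 118% and 89.9% and EBP at 91.1%, 84.3% and 95.9%. TM7SF2 was below every mock library in knockdown library 1. HSD17B7 has annotated pseudogene copies with 7.79% as many counts as the gene itself, so its value is uncertain.

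**Figure D4:**
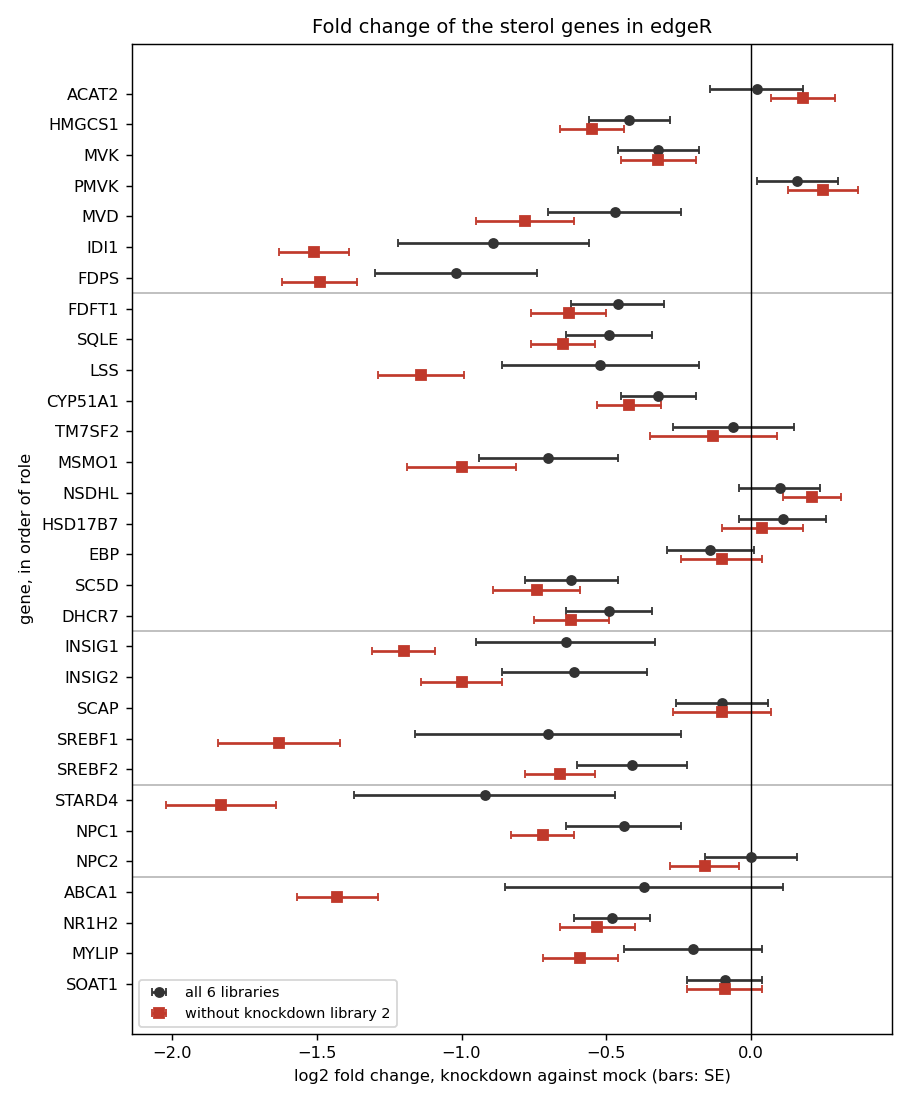
Log2 fold change of knockdown against mock in edgeR, with its SE as bars, for the 30 tested genes in order of role, with all 6 libraries (circles) and without knockdown library 2 (squares). The largest distances between the estimates are those of ABCA1 (-0.37 and -1.43), SREBF1 (-0.70 and -1.63) and STARD4 (-0.92 and -1.83).

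The SREBP machinery held no gene whose groups did not overlap, against 8.84% of genes tested with all knockdown below all mock libraries. In it, 4 of 5 genes were low in knockdown libraries 1 and 3 alone, against 13.2% of genes tested. INSIG1 (ENSG00000186480, chromosome 7 from 155297776 to 155310235, plus strand), the sterol-sensing anchor that is itself a target of SREBP, was at 296, 294 and 325 CPM in mock and at 126, 323 and 139.7 CPM in knockdown libraries. Library 2 was at the mock level, at 106% of the mean, and libraries 1 and 3 were at 41.1% and 45.8%. For INSIG1 the log2 fold change was -0.64 (SE 0.31, adjusted p 0.361 in edgeR), and -1.20 (SE 0.11, adjusted p 0.000299) without knockdown library 2. INSIG2 (ENSG00000125629, chromosome 2 from 118088452 to 118110997, plus strand), its paralog, was at 84.4, 107 and 115 CPM in mock and at 51.6, 98.4 and 50.7 CPM in knockdown libraries, a log2 fold change of -0.61 (SE 0.25, adjusted p 0.292 in edgeR). Both INSIG genes were thus low in the same libraries, and the ratio of INSIG1 to INSIG2 in FPKM, a level per gene length, was 3.80, 2.97 and 3.06 in mock and 2.63, 3.55 and 2.98 in knockdown libraries.

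SREBF1 (ENSG00000072310, chromosome 17 from 17810399 to 17837002, minus strand) was at 592, 439 and 526 CPM in mock and at 127, 622 and 210.0 CPM in knockdown libraries. The knockdown libraries parted widely, at 24.4%, 119.9% and 40.5% of the mock mean, with library 2 above every mock library. Its log2 fold change was -0.70 (SE 0.46, adjusted p 0.502 in edgeR), and -1.63 (SE 0.21, adjusted p 0.00180) without knockdown library 2. The gene has isoforms with separate starts, which gene counts do not tell apart. SREBF2 (ENSG00000198911, chromosome 22 from 41833079 to 41907308, plus strand), the gene of SREBP2, was at 327, 274 and 292 CPM in mock and at 174, 293 and 205 CPM in knockdown libraries, a log2 fold change of -0.41 (SE 0.19, adjusted p 0.339 in edgeR). In FPKM, SREBF1 was above SREBF2 in all 3 mock libraries and in knockdown library 2, whereas their ratio was 0.686 and 0.965 in knockdown libraries 1 and 3. SCAP, the escort protein, was at 88.6, 63.7 and 64.6 CPM in mock and at 59.4, 67.7 and 75.7 CPM in knockdown libraries, so the groups overlapped and its log2 fold change of -0.10 (SE 0.16, adjusted p 0.814 in edgeR) was 0.07 without mock library 1.

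Among sterol transport genes, STARD4 (ENSG00000164211, chromosome 5 from 111496033 to 111512590, minus strand), a soluble carrier that moves cholesterol between membranes and a known SREBP2 target, was at 143, 207 and 209.7 CPM in mock and at 59.5, 191 and 45.7 CPM in knockdown libraries. Libraries 1 and 3 were at 31.9% and 24.5% of the mock mean and library 2 at 102%. STARD4 had a log2 fold change of -0.92 (SE 0.45, adjusted p 0.371 in edgeR), and -1.83 (SE 0.19, adjusted p 0.000618) without knockdown library 2, the largest of all members in that fit. NPC1, the membrane protein that lets cholesterol leave the lysosome, was at 163, 142 and 147 CPM in mock and at 90.9, 151 and 92.3 CPM in knockdown libraries, low in libraries 1 and 3 and within the mock range in library 2. NPC2, its soluble partner in the lysosome, was at 85.9%, 122% and 93.1% of its mock mean of 152 ± 14.5 CPM (SD, n = 3). The ratio of NPC2 to NPC1 in FPKM was 3.70, 3.52 and 3.91 in mock and 5.28, 4.50 and 5.64 in knockdown libraries, so it was higher in all 3 knockdown libraries, a comparison within libraries that was not tested.

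In the LXR arm, NR1H2 (ENSG00000131408, chromosome 19 from 50329653 to 50382982, plus strand), the gene of LXR beta, was at 44.3, 39.7 and 47.6 CPM in mock and at 28.2, 33.7 and 32.5 CPM in knockdown libraries. It was low in all 3 knockdown libraries, at 64.3%, 76.9% and 74.1% of the mock mean, and its log2 fold change was -0.48 (SE 0.13, unadjusted p 0.00511, adjusted p 0.159 in edgeR, adjusted p 0.0471 in DESeq2). ABCA1 (ENSG00000165029, chromosome 9 from 104781002 to 104928237, minus strand), the LXR target that loads cholesterol onto apolipoproteins, was at 37.5, 39.2 and 41.8 CPM in mock and at 12.8, 62.5 and 16.6 CPM in knockdown libraries. Knockdown library 2 was above every mock library, at 158% of the mean, and libraries 1 and 3 were far below, at 32.4% and 42.0%. For ABCA1 the log2 fold change was -0.37 (SE 0.48, adjusted p 0.749 in edgeR), and -1.43 (SE 0.14, adjusted p 0.000484) without knockdown library 2. MYLIP, another LXR target and a ubiquitin ligase for lipoprotein receptors, had the same order, at 64.6%, 128% and 68.5% of a mock mean of 20.8 ± 1.28 CPM (SD, n = 3). SOAT1, which esterifies cholesterol for storage, was at 102%, 94.2% and 85.9% of a mock mean of 40.1 ± 3.50 CPM (SD, n = 3), and the groups overlapped.

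Ordered by level per gene length, INSIG1 led in mock libraries at 82.1 ± 4.58 FPKM (SD, n = 3), followed by FDPS at 78.9 ± 7.70 and HMGCS1 at 66.1 ± 3.15 FPKM. INSIG1 and FDPS did not differ beyond their spread. SREBF1, IDI1, FDFT1 and NPC2 followed at 63.4 to 54.3 FPKM, each within the spread of its neighbour. The lowest tested members were MVK at 4.94 ± 0.171, HSD17B7 at 4.02 ± 0.281 and ABCA1 at 3.42 ± 0.218 FPKM. In knockdown libraries the genes at the top by mean were NPC2 at 56.2 ± 9.61, INSIG1 at 54.2 ± 29.6 and HMGCS1 at 51.2 ± 8.82 FPKM, which did not differ beyond their spread. Less RNA in each cell and fewer cells with the RNA cannot be told apart in these bulk libraries.

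Other genes of sterol and lipid metabolism gave 0 calls in edgeR's test over all genes, in lists whose choice was made with earlier results of these data known. Fatty acid synthesis targets of SREBP1 were closest to the sterol genes. Of 11 tested, 9 were lower and 4 of these had an unadjusted p under 0.05, with 1 higher, and the median log2 fold change was -0.45. Over all genes tested, 46.7% were lower, and 6.88% were lower and 8.14% higher at an unadjusted p under 0.05. The median of these 11 genes relative to mock was -0.73, -0.02 and -0.59 in knockdown libraries 1, 2 and 3. ACLY, which makes cytosolic acetyl-CoA, was at 395, 339 and 342 CPM in mock and at 188, 318 and 208 CPM in knockdown libraries (log2 fold change -0.59, SE 0.19, adjusted p 0.205 in edgeR). ME1, malic enzyme, a source of NADPH, was at 20.5, 22.3 and 24.5 CPM in mock and at 14.2, 20.3 and 14.8 CPM in knockdown libraries (-0.45, SE 0.17, adjusted p 0.257). FADS1, a desaturase of polyunsaturated fatty acids, was at 206, 208 and 206 CPM in mock and at 131, 197 and 139 CPM in knockdown libraries (-0.41, SE 0.16, adjusted p 0.281). For ACLY, ME1 and FADS1 knockdown libraries 1 and 3 were the lowest, and knockdown library 2 was also below every mock library. All knockdown libraries lay below all mock libraries for these 3 of the 11 genes, against 8.84% of genes tested. The isoprenoid branches that draw on farnesyl diphosphate had 6 of 12 genes lower and 6 higher with a median of -0.01, and 0 of them at an unadjusted p under 0.05.

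Again, 46.7% of all genes tested were lower, and 6.88% were lower and 8.14% higher at an unadjusted p under 0.05. Of the 11 genes of SREBP processing and sterol-regulated turnover, 10 were lower with a median of -0.13. At an unadjusted p under 0.05 there was 1 of these 11, lower, which is near the share over all genes. That gene, MBTPS2, the site-2 protease that frees SREBP from the membrane, was at 55.7, 64.2 and 62.9 CPM in mock and at 46.8, 50.9 and 40.2 CPM in knockdown libraries (log2 fold change -0.41, SE 0.13, adjusted p 0.207 in edgeR). Of 12 genes of sterol uptake and trafficking, 7 were lower and 5 higher, with 2 lower and 1 higher at an unadjusted p under 0.05. LRP8, a lipoprotein receptor, was at 56.6, 47.9 and 49.6 CPM in mock and at 34.5, 36.3 and 28.6 CPM in knockdown libraries, low in all 3 (-0.63, SE 0.14, adjusted p 0.115 in edgeR). VLDLR, a related receptor, was at 80.2, 76.6 and 79.2 CPM in mock and at 35.5, 72.0 and 44.7 CPM in knockdown libraries (-0.63, SE 0.22, adjusted p 0.231). Without knockdown library 2 the adjusted p in edgeR of ACLY, ME1, FADS1, MBTPS2, LRP8 and VLDLR was 0.00165 to 0.0282. Of 5 LXR partners and targets and 3 genes of acetyl-CoA and acetoacetate metabolism, 0 had an unadjusted p under 0.05.

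The 7-base run GTACTAT, which the longest annotated 3′ untranslated region of CCNB1 holds, had been examined in earlier results on genes called lower in these libraries. It was present in that region of 2 of 30 members, IDI1 and STARD4, or 6.67%, against 6.76% of the 13189 tested genes searched. The median log2 fold change of the members was -0.43 with these genes and -0.41 without them.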

How the data were processed

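Total RNA of 6 H1299 libraries was prepared with the NEBNext Ultra kit for Illumina sequencing, per the labels' protocols. The authors deposited FPKM values and raw gene counts. Per the submitters' processing notes the tools included HISAT2 2.1.0 and featureCounts 2.0.3, with bcl2fastq 2.20 and DESeq2, on GRCh38.p13. Annotation, strand setting and multi-mapping are not given in the sources used here. The gene length behind the deposited FPKM equalled the summed exon length in GENCODE 29 for 28 of 31 members, and positions are printed for such members alone.

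Counts of 17349 of 58336 genes passed filterByExpr, were TMM-scaled and went into edgeR's quasi-likelihood F test (edgeR 4.0.16, R 4.3.3), with Benjamini-Hochberg adjustment over all of them. Standard errors are log2 fold changes over the root of F, and log2 CPM used a prior count of 2. The biological coefficient of variation was 17.6%. Libraries differed pairwise by more than sampling noise (chi-square per degree of freedom 12.8 or more), so all 6 were kept. The limit of 3 counts, 0.094 to 0.106 CPM, covers counting error only.

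Alternatives were DESeq2 1.42.0, its size factors, no filter, a replicate block, each library left out, and limma 3.58.1 on log2(FPKM + 1) or log2(FPKM + 0.1) with a mean of at least 0.1 FPKM. The tests were tried on simulated counts. Library values are given for members with an unadjusted p under 0.05 or an absolute log2 fold change of at least 0.5, for SCAP, the INSIG and SREBF genes and ABCA1, and, chosen after their values were seen, for MVD and NPC1. Members, roles and lists were chosen with earlier results of these data known. RefSeq promoters matched 27 of 31 members. Values of 1 gene from these lists are not reported here.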

Additional observations from a re-analysis of the deposited data

How the results depend on the processing

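The median log2 fold change of the members, -0.43, lay between -0.48 and -0.39 under the 6 alternatives that keep all libraries and between -0.62 and -0.31 with single libraries left out. No member passed with all libraries in edgeR, against 14 with no filter on low counts, 3 in DESeq2, 1 (FDPS, adjusted p 0.0289) with the replicate block, and 0 to 20 with single libraries left out, the 20 being without knockdown library 2. Over all genes, 4 passed, against 1077 with no filter, 564 in DESeq2, 162 with the replicate block, 1 in limma at either pseudocount, 5 with DESeq2 size factors, and 1 to 2453 with single libraries left out. The cause of these differences was not tested.

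Of 30 members, 26 kept their sign in all 12 alternatives. NPC2, at 0.00, was -0.01 with DESeq2 size factors, in DESeq2 and with the block, -0.04 with no filter, and -0.16 to 0.07 with single libraries left out. ACAT2, at 0.02, was -0.02 with no filter and -0.08 to 0.18 with single libraries left out, TM7SF2 -0.22 to 0.12 and SCAP -0.19 to 0.07. Same-numbered mock and knockdown libraries correlated by -0.189, 0.111 and 0.0666 in their deviations from the group means, so the numbers were not taken as pairs.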
